A study of Homo sapiens with 6 samples.

Results

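AP1M2, MUC1 and ELF3 are epithelial genes whose array signal was lower in MDA-MB-231 cells given the precursor of hsa-miR-205-5p than in cells given a scrambled control, and AP1M1 is the ubiquitous paralog of AP1M2. The 4 genes are followed here through the 5 probes whose annotated transcript is a RefSeq transcript of one of them, out of 50599 probes on the array. AP1M2, AP1M1 and ELF3 have 1 probe each and MUC1 has 2. Of the 5 probes, 4 passed the filter on dim signals, as did 18464 of all probes. The probe that did not pass is the second MUC1 probe. The genes were chosen by their log2 fold changes with hsa-miR-205-5p against the control, so those values are given below as a description and without a test.

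The MDA-MB-231 line comes from a human breast cancer, carries a mesenchymal expression pattern and lacks the oestrogen and progesterone receptors. Cells were reverse transfected with a precursor of hsa-miR-205-5p, with one of hsa-miR-214-3p or with a scrambled negative control, and RNA was collected 72 h later according to the text of the series. Each group has 2 arrays, and all 6 one-colour Agilent arrays lay on 1 slide, with the arrays of a group side by side, so position on the slide and group cannot be told apart. All groups were transfected, so the scrambled control carries the transfection itself, and the labels do not say whether the replicates of a group came from separate cultures, so the p-values below measure only the spread between these arrays.

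The signal of a spot, an intensity with local background removed, was put on a log2 scale and set to 0 at each array's 75th percentile, which gives the normalized log2 signal used below. That percentile lay between 35.1 and 58.0 intensity units, 35.4% to 42.2% of the spots of an array stood well above background, and saturated spots numbered 0. The number of arrays limits the precision. A probe entered the test when at least 1 group had it well above background on both of its arrays. Differences were estimated with limma, and a call required a change of 2-fold or more and an adjusted p (Benjamini-Hochberg) under 0.05. With 75th percentile scaling, the median log2 fold change over the 11974 genes tested was 0.08 for hsa-miR-205-5p and −0.01 for hsa-miR-214-3p. The calls for hsa-miR-205-5p rested on its second replicate, since limma called 0 of the tested probes lower or higher without that array, where 1762 were lower and 1011 higher by 2-fold at an unadjusted p under 0.05. For hsa-miR-214-3p, limma called 0 probes in either direction when any 1 array other than scrambled control replicate 2 was left out, with 638 to 838 lower and 405 to 613 higher at an unadjusted p under 0.05. Counts at an unadjusted p under 0.05 are given below beside counts of 0 and keep the 2-fold limit, which 1919 of the 18464 probes passed lower and 992 higher with hsa-miR-205-5p on all 6 arrays, and 715 and 496 with hsa-miR-214-3p.

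Of the markers of the line, VIM, CD44, AXL, CAV1 and PLAUR were well above background on all 6 arrays, and ESR1, PGR and FOXA1 on 0. GATA3 and CDH1, which were listed as absent from this line, were nonetheless well above background on all 6 arrays. Of 4 markers of blood and endothelial cells, CD3E was above background on 0 arrays and PTPRC on at most 2, while CD68 was above background on 6 and PECAM1 on 3. With hsa-miR-205-5p, CD68 met the rule for a lower call. PECAM1, which passed the filter only through the control, was not well above background on any hsa-miR-205-5p array, and its level there was at least 2.25-fold below the control. The summed level of the 4 markers, as multiples of the 75th percentile, was 4.40 and 5.37 with hsa-miR-205-5p, 10.3 and 10.5 with hsa-miR-214-3p, and 8.13 and 11.7 in the control. CD68 made up most of each sum, at 3.72 and 4.74 with hsa-miR-205-5p against 7.04 and 10.8 in the control. PECAM1 was also lower with hsa-miR-205-5p, at 0.236 and 0.179 against 0.753 and 0.720. The dim PTPRC and CD3E were not lower there, with PTPRC at 0.375 and 0.356 against 0.281 and 0.132. The part of these markers in the results below was not tested.

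Epithelial cells hold sheets together by junctions and keep an apical and a basolateral surface. AP1M2 encodes the mu subunit of the epithelial form of the adaptor complex AP-1, which gathers membrane proteins into clathrin-coated vesicles at the trans-Golgi network and recycling endosomes and sends them to the basolateral surface, while AP1M1 encodes the mu subunit of the form that most cells use. MUC1 is a heavily O-glycosylated mucin that spans the apical membrane. ELF3 is a transcription factor of the ETS family whose expression is mostly restricted to epithelia, and miR-205-5p is itself known as an epithelial miRNA.

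The transfected agents are shown first because every contrast below is set by one of them. Their mature sequences, from RefSeq, are written with the seed, bases 2 to 8, in capitals, and the seeds of both miRNAs differ.
hsa-miR-205-5p: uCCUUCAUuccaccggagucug
hsa-miR-214-3p: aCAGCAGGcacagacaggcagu

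The promoters of the 3 epithelial genes are shown because these genes were lower together. Each stretch holds the 250 bases before the start of the gene in RefSeq (GRCh38.p14), read in the direction of the gene, with every CACCTG in capitals. CACCTG is an E-box that repressors of epithelial genes such as the ZEB and Snail factors are known to bind. The search covered both strands, so that CAGGTG was also marked, but every match lay on the strand of the gene. The AP1M2 window is chr19:10587313-10587562 (minus strand), the MUC1 window is chr1:155192916-155193165 (minus strand, the first of 2 in the table) and the ELF3 window is chr1:202010337-202010586 (plus strand).
AP1M2: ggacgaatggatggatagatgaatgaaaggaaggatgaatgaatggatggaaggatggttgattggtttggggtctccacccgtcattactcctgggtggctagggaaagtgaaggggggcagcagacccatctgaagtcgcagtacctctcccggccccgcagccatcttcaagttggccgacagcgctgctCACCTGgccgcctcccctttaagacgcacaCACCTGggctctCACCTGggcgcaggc
MUC1: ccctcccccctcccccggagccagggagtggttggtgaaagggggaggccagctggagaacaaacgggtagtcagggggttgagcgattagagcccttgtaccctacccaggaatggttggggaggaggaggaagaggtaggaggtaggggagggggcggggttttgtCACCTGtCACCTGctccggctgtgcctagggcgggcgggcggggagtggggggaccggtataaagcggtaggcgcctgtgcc
ELF3: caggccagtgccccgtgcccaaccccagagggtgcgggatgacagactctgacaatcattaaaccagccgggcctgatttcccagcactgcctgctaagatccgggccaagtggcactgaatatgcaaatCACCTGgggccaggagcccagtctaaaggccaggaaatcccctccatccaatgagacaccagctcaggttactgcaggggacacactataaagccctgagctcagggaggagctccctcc

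The AP1M2 window holds 3 copies of CACCTG, at 57, 27 and 15 bases before the start. The MUC1 window holds 2, at 82 and 75 bases before the start, and the ELF3 window holds 1, at 120. Among the windows of 27305 RefSeq genes, 17.5% hold at least 1 copy, 2.55% at least 2 and 0.472% at least 3. GGAAG, a form of the core that ETS proteins recognize, was searched on both strands and occurs 2 times before AP1M2, 1 time before MUC1 and 0 times before ELF3, and 65.1% of all windows hold it. TATAAA on the strand of the gene lies 24 bases before the start of MUC1 and 34 before that of ELF3, is not in the AP1M2 window, and is found in 7.17% of all windows. None of these matches overlaps another. They describe the letters of the windows and show neither binding nor use of a site.

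AP1M2 lies on chromosome 19 from 10572671 to 10587312 (GRCh38.p14). Its normalized log2 signal was 3.07 and 4.08 on the control arrays, 4.67 and 5.11 on the hsa-miR-214-3p arrays, and −0.64 and −0.31 on the hsa-miR-205-5p arrays. The hsa-miR-205-5p arrays thus stood apart at the bottom, and the 3 groups did not overlap. All 6 spots were well above background. In unscaled intensity, the control spots read 421 and 981, the hsa-miR-214-3p spots 1231 and 1260, and the hsa-miR-205-5p spots 26.8 and 28.2. The log2 fold change with hsa-miR-205-5p was −4.05 (standard error, SE, 0.38), or 16.6-fold lower, at position 2 from the lowest of the 18464 probes, and −2.88 after background correction by normexp, a model of signal plus noise. The control replicates themselves differed by 1.01 on the log2 scale in this gene, against a median size of 0.357 between the control replicates over all tested probes. The local background was 63 at the spot of hsa-miR-214-3p replicate 1 and 27 to 30 at the others.

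AP1M1, the paralog, lies on the same chromosome from 16197911 to 16245906. Its normalized log2 signal was 5.80 and 5.63 in the control, 5.98 and 6.003 with hsa-miR-214-3p, and 4.94 and 4.97 with hsa-miR-205-5p. The hsa-miR-205-5p arrays were again the lowest and did not overlap the others, but the step was small. The log2 fold change was −0.76 (SE 0.16), or 1.69-fold lower. It was −1.15 with scaling to the median of all probes, past the 2-fold limit, where the median of all genes itself lay at −0.31. The changes of both paralogs therefore had the same sign with hsa-miR-205-5p, with AP1M2 at 16.6-fold and AP1M1 at 1.69-fold, a contrast that the choice of genes had set.

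MUC1 lies on chromosome 1 from 155185824 to 155192915. On its brighter probe the normalized log2 signal was 2.10 and 2.23 in the control, 2.90 and 3.05 with hsa-miR-214-3p, and −0.33 and −2.59 with hsa-miR-205-5p. The control and hsa-miR-214-3p replicates lay close together, while the hsa-miR-205-5p replicates lay 2.25 apart, and the lower of them was not well above background. That signal of −2.59 was under −1.44, the dimmest signal that counted as well above background on its array, so the size of the difference is uncertain. The log2 fold change computed from the signals as measured was −3.62 (SE 0.70), or 12.3-fold lower, and −1.64 with normexp. It was −2.50 without hsa-miR-205-5p replicate 2 and −4.75 without replicate 1, so that its size depended on which of these arrays was used. The second MUC1 probe, which is annotated to another transcript of the gene, was well above background on 0 of 6 arrays. It read −2.48 and −2.56 in the control, −2.81 and −3.22 with hsa-miR-214-3p, and −3.80 and −3.42 with hsa-miR-205-5p, and no fold is given for it.

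ELF3 lies on chromosome 1 from 202010587 to 202017183. Its normalized log2 signal was 0.18 and 0.63 in the control, −0.15 and 0.13 with hsa-miR-214-3p, and −1.61 and −1.65 with hsa-miR-205-5p. The hsa-miR-205-5p replicates agreed to within 0.04, and the second of them was not well above background. The log2 fold change was −2.04 (SE 0.22), or 4.10-fold lower. With normexp it was −0.73, which is under the 2-fold limit. The signals were dim throughout, with 11.2 to 89.6 intensity units over the 6 arrays.

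All 4 tested probes had both hsa-miR-205-5p arrays below both control arrays, as did 28.7% of all tested probes, and both below all of the other 4 arrays, as did 22.7%. AP1M2, MUC1 and ELF3 met the rule for a lower call (ELF3 not with normexp), which 8.05% of all probes met (4.14% were called higher), and AP1M1 did not because it changed less than 2-fold. These counts follow from the way the genes were picked, so they are a description and not a test. In these bulk samples, fewer cells that express a gene and less RNA per cell cannot be told apart.

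**Figure D1:**
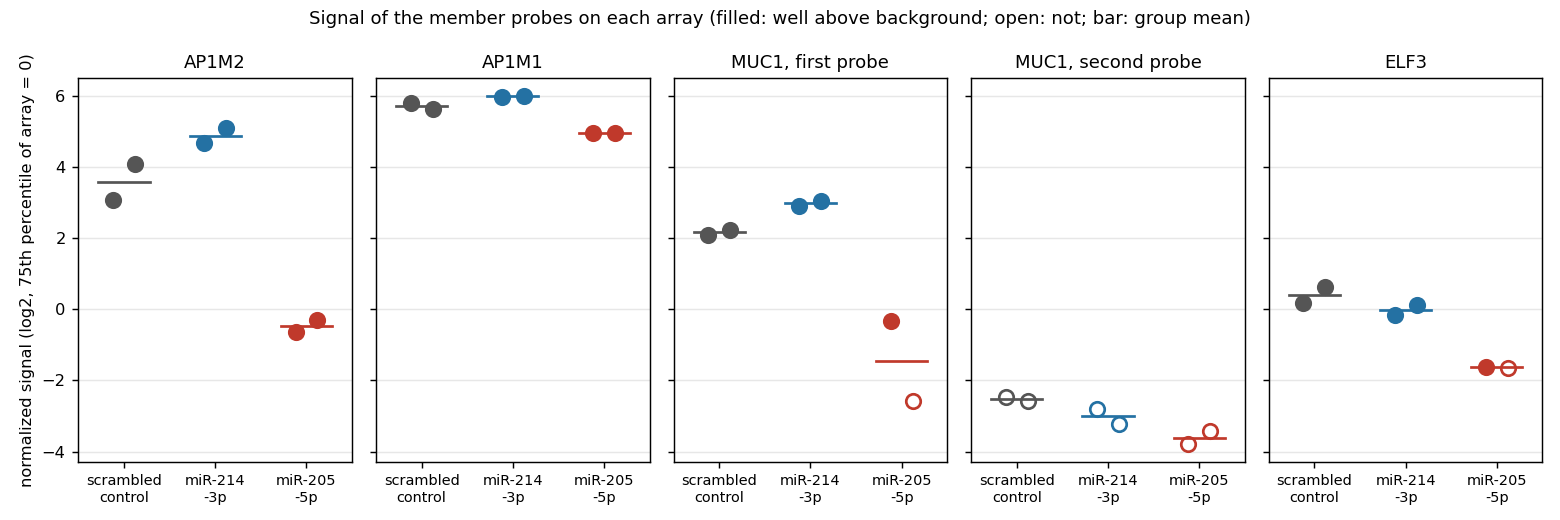
Normalized log2 signal (0 is the 75th percentile of an array) of the 5 probes on each array, by group, with the group mean as a bar, filled points for spots well above background and open points for the others. The hsa-miR-205-5p arrays are the lowest for the 4 tested probes, the second MUC1 probe is not well above background on any array, and the hsa-miR-205-5p replicates of the first MUC1 probe lie 2.25 apart.

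The hsa-miR-214-3p arrays played no part in the choice of the genes, although they are compared here with the same control arrays. Of the 4 probes, limma called 0 with hsa-miR-214-3p (AP1M2 alone passed at an unadjusted p, 0.0152), where 1.68% of all probes were called lower and 0.991% higher. AP1M2 had a log2 fold change of 1.31 (SE 0.38, limma adjusted p = 0.127), and both hsa-miR-214-3p arrays were above both control arrays. Without scrambled control replicate 2, the brighter control array for this gene, the log2 fold change was 1.82 and the call was made (limma adjusted p = 0.0335). Over all the settings tried, the adjusted p from limma ran from 0.0335 to 0.543, so the direction held but the call depended on 1 control array.

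MUC1 had a log2 fold change of 0.81 (SE 0.70, limma adjusted p = 0.535), again with both hsa-miR-214-3p arrays above both controls. The wide error mostly reflects the spread of the hsa-miR-205-5p replicates, which enter the common estimate of spread. AP1M1 had a log2 fold change of 0.27 (SE 0.16, limma adjusted p = 0.354). ELF3 had one of −0.41 (SE 0.22, limma adjusted p = 0.325) with both arrays below both controls. Thus 3 of the 4 probes had both hsa-miR-214-3p arrays above both controls, as 26.8% of all probes did, and 1 had both below, as 28.6% did. A difference in these genes with hsa-miR-214-3p could not be shown at this number of arrays.

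Set against hsa-miR-214-3p instead of the control, the hsa-miR-205-5p log2 fold changes were −5.36 for AP1M2 (SE 0.38), −4.44 for MUC1 (0.70), −1.62 for ELF3 (0.22) and −1.04 for AP1M1 (0.16). AP1M2 was the lowest of all tested probes in that contrast. The value for MUC1 again rests in part on the array where it was not well above background. As the hsa-miR-205-5p arrays are those on which the genes were picked, these values are a description.

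**Figure D2:**
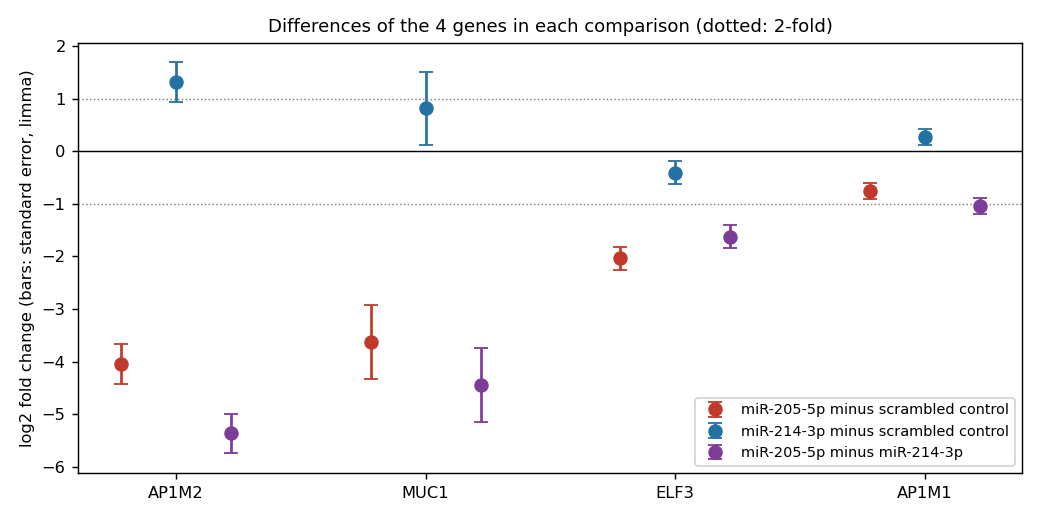
Log2 fold change of AP1M2, MUC1, ELF3 and AP1M1 (points) with limma's standard error (bars) in the 3 comparisons of groups, with dotted lines at 2-fold. The hsa-miR-205-5p differences lie below 0 for all 4 genes, from −4.05 to −0.76 against the control, while those of hsa-miR-214-3p lie between −0.41 and 1.31.

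The adaptor complex to which AP1M2 and AP1M1 belong was followed through its other subunits. Of the 6 tested, 0 were called lower and 0 higher with hsa-miR-205-5p, and their median log2 fold change was 0.11, against 0.08 over all genes, of which 7.98% were called lower and 4.78% higher. At an unadjusted p from limma, the counts were also 0 and 0. AP1G2, a gamma subunit, had a log2 fold change of −0.99 (limma adjusted p = 0.0151), just under the 2-fold limit. AP1G1, the other gamma subunit, had one of −0.12, AP1B1, the beta subunit, one of 0.74 on its brighter probe and 0.01 on its dimmer probe, and the sigma subunits AP1S1 and AP1S2 had −0.58 and 0.34. AP1S3, the third sigma subunit, had one of 0.89 on its brighter probe (limma adjusted p = 0.0356) and −1.05 on its dimmer probe, so that its probes disagreed in direction. With hsa-miR-214-3p, where 2.03% of all genes were called lower and 1.09% higher, 0 of the 6 were called, and 1 was lower at an unadjusted p. This was AP1G1, the largest difference there, a log2 fold change of −1.37 (limma adjusted p = 0.0581), with signals of 2.02 and 1.88 against 3.32 and 3.32 in the control.

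The mu subunits of the other adaptor complexes, AP2M1, AP3M1, AP3M2, AP4M1 and AP5M1, ranged from −0.78 to 0.47 with hsa-miR-205-5p, and limma called 0 of the 5 with either precursor, also at an unadjusted p. Among 16 tested genes for clathrin and partners of AP-1, 2 were called lower with hsa-miR-205-5p (7.98% of all genes were), 0 were called higher, and the median was −0.04. ARF1, the small GTPase that recruits AP-1 to membranes, fell from 4.61 and 4.32 in the control to 3.10 and 2.79, a log2 fold change of −1.52 (limma adjusted p = 0.0133). PI4K2A, a lipid kinase of the trans-Golgi network, fell from 2.17 and 2.31 to 0.75 and 0.68, which is also −1.52 (limma adjusted p = 0.00841). Neither was called with hsa-miR-214-3p, with log2 fold changes of 0.01 for ARF1 and 0.23 for PI4K2A.

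Of 6 tested cargo proteins that AP-1 sorts, 1 was called lower (against 7.98% of all genes) and 0 higher with hsa-miR-205-5p, at a median of −0.12, and the count lower ran from 0 to 2 over the settings tried. It was IGF2R, the large mannose 6-phosphate receptor, which fell from 1.81 and 1.66 to 0.73 and 0.40, a log2 fold change of −1.17 (limma adjusted p = 0.0174). M6PR, the small mannose 6-phosphate receptor, had a larger difference of −1.87 that was not called (limma adjusted p = 0.0561). With hsa-miR-214-3p, 0 of these cargo genes and 0 of the clathrin and AP-1 partner genes were called by limma, also at an unadjusted p.

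Only MUC3A and MUC4 of the other transmembrane mucins were tested, as the remaining 8 listed mucins were too dim or had no probe with their name. MUC3A, an intestinal mucin, had signals of 0.55 and 0.80 with hsa-miR-205-5p and 0.53 and −0.39 in the control. MUC4, a mucin of many epithelia, had 2.89 and 2.60 with hsa-miR-205-5p and 2.88 and 2.11 in the control. The groups overlapped for MUC4 and not for MUC3A, and neither gene was called with either precursor, also at an unadjusted p from limma.

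The enzymes that build the O-glycans of mucins followed. Of 12 tested, 2 were called lower (against 7.98% of all genes) and 1 higher (against 4.78%) with hsa-miR-205-5p, at a median of 0.03. Over the settings tried, these counts ran from 0 to 4 lower and from 0 to 3 higher. GALNT11, which adds the first sugar, read −0.38 and 0.06 in the control, did not rise well above background on either array of hsa-miR-205-5p, and was there at least 2.74-fold lower (limma adjusted p = 0.00799). For this limit, the dim probe was set on each array to the dimmest signal that counted as well above background, unless its own signal was higher, and compared with the mean of the control. ST3GAL1, a sialyltransferase that caps the core glycan, fell with a log2 fold change of −1.23 (limma adjusted p = 0.022), and the study had put it, as it had ELF3, among its targets from these same samples, so its fall is not independent evidence. C1GALT1, which extends the first sugar to the core, rose by a log2 fold change of 1.30, from 0.19 and 0.26 to 1.58 and 1.48 (limma adjusted p = 0.00924). With hsa-miR-214-3p, GALNT7, another enzyme of this family, was the single call of 12, where 2.03% of all genes were called lower, at −1.44 (limma adjusted p = 0.0339), and the count was 0 in 9 of the 20 alternative settings. Of the 5 tested sheddases and binding partners of MUC1, 0 were called with either precursor, and at an unadjusted p from limma 1 was higher with hsa-miR-214-3p.

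ELF3 was compared with the other ETS transcription factors. With hsa-miR-205-5p, 0 of the 17 tested were called lower and 0 higher (against 7.98% and 4.78% of all genes), with 2 lower, ELK1 and ETV5, and 0 higher at an unadjusted p from limma, and their median log2 fold change was −0.003. The relatives of the ELF subfamily had log2 fold changes of −0.28 for ELF1, 0.03 for ELF2, 0.50 for ELF4 and 0.23 for EHF, which like ELF3 is mostly epithelial. ELF5 was too dim to test. ELK1 did not rise well above background with that precursor on either array, and its level was at least 1.93-fold below the control without a call (limma adjusted p = 0.0694), so its place relative to ELF3 is not known. ETV5 and ETV7 were too dim on these arrays as well, and no fold is given for them with this precursor. With hsa-miR-214-3p, ELF1, ELF2, ELF4 and EHF had −0.20, −0.49, 0.03 and −0.19. ETV7 alone of the 17 met the call rule there, where 1.09% of all genes were called higher and 2.03% lower, but it passed the filter only through the hsa-miR-214-3p arrays, and as its control signal was not well above background it has only a bound, at least 1.71-fold higher, which is under the 2-fold limit.

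Genes that have been reported as targets of ELF3 were also counted. Of 13 listed, 6 were tested, 0 were called lower and 1 was called higher (against 4.78% of all genes) with hsa-miR-205-5p, at a median of 0.59. The gene called was FLG, the precursor of filaggrin in skin, with a log2 fold change of 1.25 on its brighter probe (limma adjusted p = 0.0491). Its dimmer probe had −0.03, so the rise rests on 1 probe, and the count was 0 in 14 of the 20 alternative settings. CLDN7 entered this list by its brighter probe, at 0.55 (limma adjusted p = 0.149), while its dimmer probe had −0.89 (limma adjusted p = 0.0202). The probes of CLDN7 thus disagreed in direction. With hsa-miR-214-3p, limma called 0 of the 6, also at an unadjusted p.

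**Figure D3:**
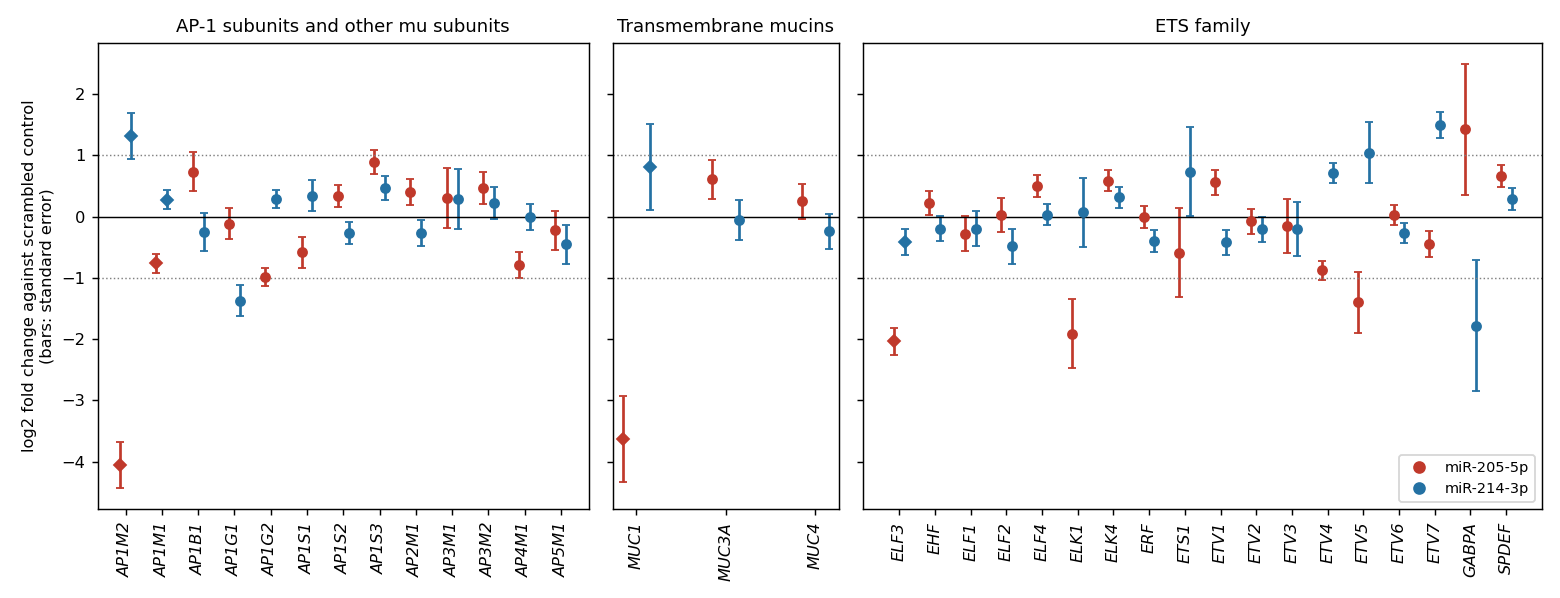
Log2 fold change against the scrambled control (points) with limma's standard error (bars) for AP-1 and other adaptor mu subunits, transmembrane mucins and ETS factors, with hsa-miR-205-5p in red, hsa-miR-214-3p in blue and the 4 picked genes as diamonds. AP1M2, MUC1 and ELF3 are plotted at −4.05, −3.62 and −2.04 with hsa-miR-205-5p, while the red points of ELK1, ETV5 and ETV7 come from spots too dim to count as above background and are not exact.

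The other epithelial genes were counted from a list of 73, of which 43 were tested besides AP1M2, MUC1 and ELF3. With hsa-miR-205-5p, 16 of the 43 were called higher (37.2%, against 4.78% of all genes), 0 were called lower (1 at an unadjusted p from limma), and 38 had a log2 fold change above 0. Their median was 0.65, against 0.08 over all genes. This list was drawn up with earlier results of these data known, and its count is a description. CRB3, a polarity protein of the apical membrane, read −2.00 and −2.67 in the control and 1.34 and 1.31 with hsa-miR-205-5p, a log2 fold change of 3.66. It passed the filter only through the hsa-miR-205-5p arrays, and 1 of the 2 control arrays was not well above background. EPCAM, an epithelial adhesion molecule, rose from 0.35 and 0.83 to 3.21 and 2.77, a log2 fold change of 2.40 (limma adjusted p = 0.00879). PRSS8, a membrane-anchored serine protease, rose by 2.33 on the log2 scale (limma adjusted p = 0.0169), with 1 control array not well above background.

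The lowest measured difference among the 43 was that of the desmosomal cadherin DSG2, at −1.46, which was not called (limma adjusted p = 0.0615). It was too dim on both hsa-miR-205-5p arrays to rise well above background, so its fall is only a bound and it cannot be ranked against ELF3. The epithelial genes called higher depended on the arrays and the settings, from 0 without hsa-miR-205-5p replicate 2 (18 at an unadjusted p from limma) to 19 without scrambled control replicate 1. ERBB3 and F11R were called on their brighter probes, while their dimmer probes had log2 fold changes of 0.05 and −0.13. With hsa-miR-214-3p, 1 of the 43 was called higher (against 1.09% of all genes) and 0 lower (against 2.03%), at a median of 0.06. It was the tight junction gene CLDN3, at 1.13 (limma adjusted p = 0.0373), which was also higher with hsa-miR-205-5p, at 1.09. The count with hsa-miR-214-3p ran from 0 to 2 over the alternative settings and differed from 1 in 18 of 20.

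**Figure D4:**
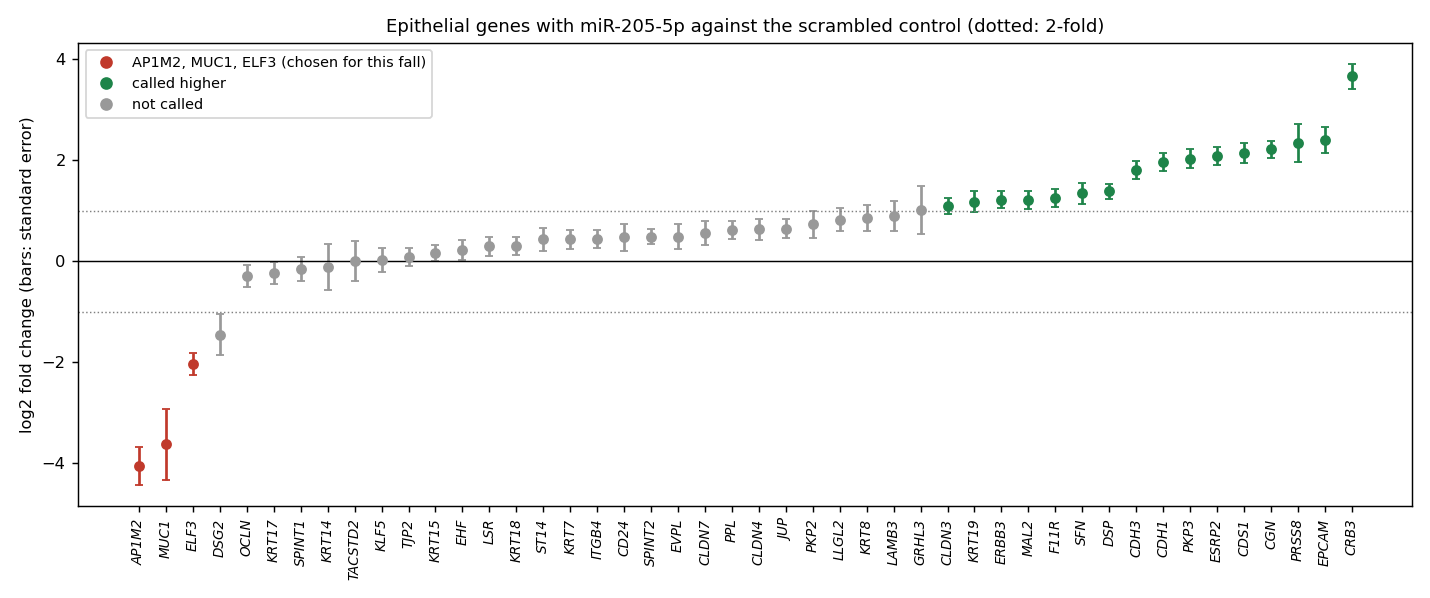
Log2 fold change with hsa-miR-205-5p against the scrambled control (points) with limma's standard error (bars) for 43 epithelial genes and the 3 picked genes, sorted by measured value, with dotted lines at 2-fold. The 16 genes called higher are green and AP1M2, MUC1 and ELF3, picked for their fall, are red, while the places of DSG2, KRT14 and OCLN are not exact because their spots were too dim with this precursor to count as above background.

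The genes on either side of each of the 4 genes were read from RefSeq, taking the nearest with a tested probe. Beside AP1M2, CDKN2D, a cell cycle inhibitor, differed by a log2 fold change of −0.77 and was not called with hsa-miR-205-5p, and SLC44A2, a choline transporter, had one of −0.87 (limma adjusted p = 0.0186), under the 2-fold limit. Beside AP1M1, the small GTPase gene RAB8A and the transcription factor gene KLF2 had 0.13 and −0.08. Beside MUC1, TRIM46, a microtubule-associated protein, had 0.75, and THBS3, an extracellular matrix protein, was called lower at −1.05 (limma adjusted p = 0.0235). Beside ELF3, the peptidase gene RNPEP had 0.04. Of these 7 neighbours, hsa-miR-205-5p thus gave 1 call, lower, where 7.98% of all genes were called lower, and hsa-miR-214-3p gave 0 by limma, also at an unadjusted p with the 2-fold limit.

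The genes with the nearest profile over the 6 arrays were found by the root mean square difference of the normalized log2 signal, after each gene was centred on its own mean. Genes were not scaled, so this measure counts the size of a difference as well as its shape. For AP1M2 they were SSR2, a subunit of the translocon-associated complex, at 0.473, then TTC4, a chaperone partner, at 0.582, and TRIB2, a pseudokinase, at 0.609, where the median over 11973 genes was 2.38. SSR2 read 4.16 and 5.45 in the control, 5.87 and 5.90 with hsa-miR-214-3p, and 1.64 and 1.34 with hsa-miR-205-5p. Like AP1M2, it was thus highest with hsa-miR-214-3p and spread between the control replicates. MUC1 stood at position 30 in this order, at 0.878. With hsa-miR-205-5p, TRIB2 lay under the dimmest signal that counted as well above background on both arrays, and TTC4 and MUC1 on the second, so their places in this order rest on dim signals.

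For MUC1, the nearest were the small nucleolar RNA gene SNORA70D at 0.243, the cytokine receptor gene IL10RB at 0.435 and again TTC4 at 0.498, with a median of 2.10 over all genes. SNORA70D read 1.18 and 1.90 in the control, 1.91 and 1.99 with hsa-miR-214-3p, and −1.29 and −3.52 with hsa-miR-205-5p. On the second hsa-miR-205-5p array MUC1, SNORA70D, IL10RB and TTC4 all lay under the −1.44 that bounds signals well above background there, so the gap between the replicates and the order of these profiles rest on dim signals. AP1M2 stood at position 51 for MUC1.

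For ELF3, the nearest were EDC3, an mRNA decapping factor, at 0.103, DHPS, which modifies a translation factor, at 0.111 and NKIRAS2, a small GTPase-like protein, at 0.113, with a median of 0.99 over all genes. EDC3 read 2.32 and 2.87 in the control, 2.10 and 2.13 with hsa-miR-214-3p, and 0.49 and 0.34 with hsa-miR-205-5p. As ELF3 was not well above background on the second hsa-miR-205-5p array, the close order of these genes rests in part on a dim signal. In the order for ELF3, AP1M2 stood at position 11520 and MUC1 at 10608, while ELF3 stood at 519 in the order for AP1M2 and at 492 in that for MUC1. The size of the differences enters these positions, as the hsa-miR-205-5p log2 fold change was −2.04 for ELF3, −4.05 for AP1M2 and −3.62 for MUC1. The 6 arrays, their labelling and their slide are common to all these patterns, and the hsa-miR-205-5p contrast that picked the genes makes up most of each one.

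**Figure D5:**
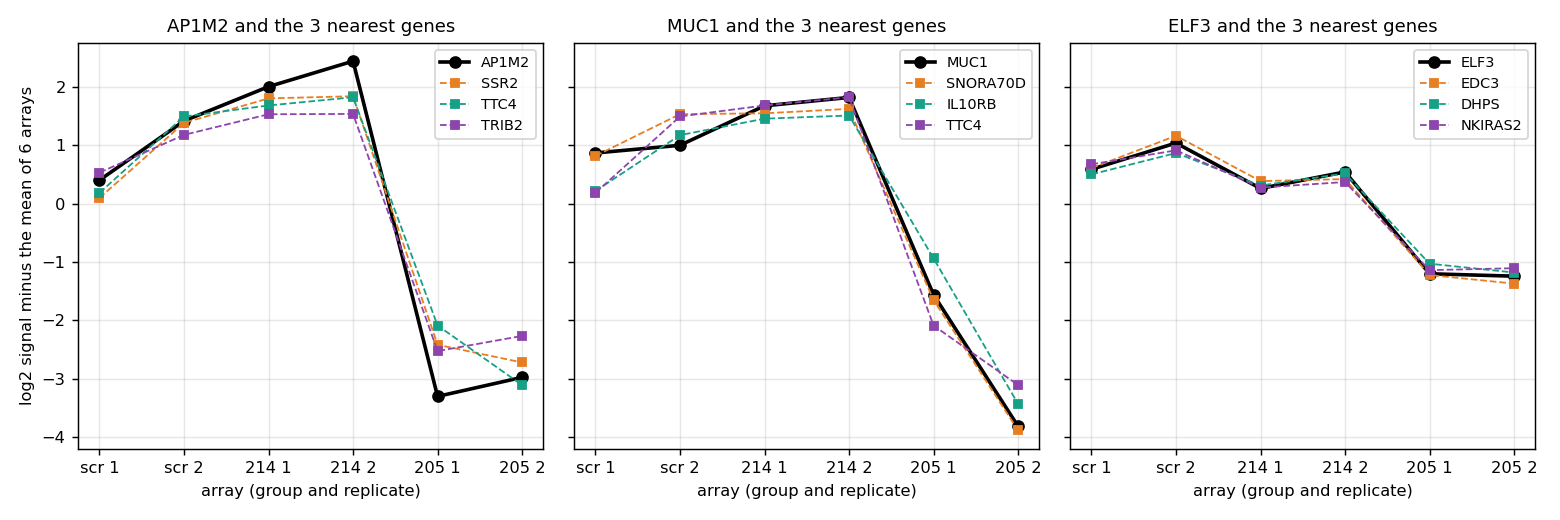
Normalized log2 signal minus each gene's mean of 6 arrays, for AP1M2, MUC1 and ELF3 (black) and the 3 genes nearest to each (colours), with the replicates of the scrambled control (scr), of hsa-miR-214-3p and of hsa-miR-205-5p in that order along the x axis. The nearest profiles differ from AP1M2 by 0.473 to 0.609, from MUC1 by 0.243 to 0.498 and from ELF3 by 0.103 to 0.113 on the log2 scale.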

How the data were processed

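Total RNA of the cells was labelled and hybridized to 6 one-colour Agilent arrays. The authors scanned them with Agilent Feature Extraction 11.0, per the submitters' processing notes, and deposited for each spot an intensity after subtraction of background and spatial detrending, with no scaling across arrays. A second deposited file holds log2 values, and its columns have identical sorted values. No columns of fold changes or p-values were used. Groups came from the sample labels.

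Control and outlier spots were left out, spots of a probe were averaged, and the 75th percentile of each array was subtracted on the log2 scale. Gene symbols came from a RefSeq list (GRCh38.p14), which was used for names, neighbours and sequences only, since the array design is on another build, and 83.3% of the kept probes had a symbol. A gene was represented by its brightest kept probe. Differences were fitted over all 6 arrays with limma 3.58.1 in R 4.3.3 (data.table, version 1.17.8), with 3 residual and 2.47 prior degrees of freedom, and adjusted over 18464 probes by the Benjamini-Hochberg method. The fit was tested on simulated data. Figures were drawn with matplotlib 3.10.9 in Python 3.11.15.

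The genes followed and all gene lists were chosen with earlier results of these data known. Besides them, the text names the called genes of each list (at most 3 in each direction where more than 6 were called), all AP-1 subunits and relatives of the ELF subfamily, the nearest tested neighbours (1 of them is not reported here) and the 3 nearest profiles. DSG2, KRT14, OCLN, ELK1, ETV5, M6PR, MUC3A and MUC4, the other mu subunits, and ERBB3 and F11R, whose probes disagreed, were named after their values were seen. The alternatives were another background correction (normexp with an offset of 50, on median signals), 3 other scalings, the authors' log2 values, other filters on dim probes, a fit of only the compared groups, a replicate block, a trended robust variance, leaving out each array, the mean of a gene's probes, the methods' t-test and no limit on fold change.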

Additional observations from a re-analysis of the deposited data

How the results depend on the processing

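With hsa-miR-205-5p, the log2 fold changes of AP1M2, AP1M1, MUC1 and ELF3 stayed below 0 under every alternative that gave a value, and with hsa-miR-214-3p their signs also held. MUC1 and ELF3 gave no value when a probe had to be well above background on all 6 arrays. Background correction by normexp moved the hsa-miR-205-5p values to −2.88 for AP1M2, −0.99 for AP1M1, −1.64 for MUC1 and −0.73 for ELF3. Scaling to the median of all probes gave −1.15 for AP1M1 and −2.43 for ELF3, and under it the median of all genes itself lay at −0.31 with hsa-miR-205-5p and −0.18 with hsa-miR-214-3p. Leaving out 1 array at a time gave −4.56 to −3.54 for AP1M2, −0.85 to −0.67 for AP1M1, −4.75 to −2.50 for MUC1 and −2.26 to −1.81 for ELF3. With hsa-miR-214-3p, it gave 0.81 to 1.82 for AP1M2, which was called only without scrambled control replicate 2. The adjusted p from limma there ran from 0.16 to 0.78 for AP1M1, 0.13 to 0.832 for MUC1 and 0.125 to 0.767 for ELF3 over the alternatives.

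The 16 epithelial genes called higher with hsa-miR-205-5p became 7 under normexp, 9 under median scaling, 8 without a filter on dim probes, 10 in a fit of only the 4 arrays compared, 0 under the methods' t-test after Benjamini-Hochberg adjustment (15 at unadjusted p), and 0 to 19 when 1 array was left out. At most 1 of the 43 listed genes was called lower under any alternative. The other lists' calls were few and changed with the settings, AP-1 subunits from 0 to 1 in each direction, O-glycosylation enzymes from 0 to 4 lower and 0 to 3 higher, clathrin and AP-1 partners and AP-1 cargo each from 0 to 2 lower, ETS factors from 0 to 2 lower and reported ELF3 targets from 0 to 1 higher with hsa-miR-205-5p, and, with hsa-miR-214-3p, ETS factors from 0 to 3 higher, epithelial genes from 0 to 2 in each direction, and AP-1 subunits and O-glycosylation enzymes each from 0 to 1 lower.

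Over all probes, 1486 were lower and 764 higher with hsa-miR-205-5p. These became 842 and 149 under normexp, 2913 and 276 under median scaling, 305 and 173 without a filter, and 597 and 261 in the fit of 4 arrays. They ran from 0 to 2244 lower and 0 to 1621 higher when 1 array was left out, with 1061 and 597 by the methods' t-test at unadjusted p and 0 and 0 after adjustment. Without a fold limit, 1532 were higher. The share of calls that were lower, 66.0%, was 85% under normexp and 91.3% under median scaling. With hsa-miR-214-3p, 311 lower and 183 higher became 0 and 0 in the fit of 4 arrays, without a filter and without any array but scrambled control replicate 2, where they were 709 and 1059. At unadjusted p and 2-fold, limma made 715 and 496 such calls, and the t-test 475 and 285. There were 45 higher under normexp and 66 under median scaling. The causes were not tested.

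The labels do not say whether replicate numbers pair the samples, and the main fit used no pairing. Deviations of same-numbered arrays correlated at 0.01 between control and hsa-miR-205-5p, −0.05 between control and hsa-miR-214-3p, and 0.11 between the precursors. With the replicate number as a block, the log2 fold changes of the 4 genes were the same, at −4.05, −0.76, −3.62 and −2.04 with hsa-miR-205-5p, 16 epithelial genes were higher, and over all probes the calls were 1314 lower and 656 higher with hsa-miR-205-5p and 0 and 0 with hsa-miR-214-3p. No slide block was run, since all arrays lie on 1 slide. Dim signals limit MUC1 and ELF3 with hsa-miR-205-5p, where each was well above background on 1 of 2 arrays.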
